A study of Homo sapiens with 12 samples.

Results

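The untreated state of the uterine leiomyosarcoma (uLMS) lines SK-LMS-1 and SK-UT-1B was compared across all expressed genes, using every DMSO library of each line. That gave 6 of the 12 libraries of the series, chosen by their labelled line and treatment, with 4 of SK-LMS-1 (2-1, 2-3, 4-1, and 4-2) and 2 of SK-UT-1B (4-1 and 4-2). Both lines are labelled wild type, were grown in the same medium, and received DMSO, the solvent used for the drugs of the study, for 72 h before RNA was taken. SK-UT-1B was derived from a primary uterine tumor and has an epithelial-like shape, while SK-LMS-1 came from a vulvar metastasis. The study exposed these lines to a gamma secretase inhibitor, alone or with gemcitabine and docetaxel. The libraries of drug-treated cells enter here for the filter on low counts, the scaling, and the shared estimate of spread. They also serve for a side-by-side reading of the line difference, for a test of whether it differed, and for 1 alternative fit. Each line stands for 1 tumor, so a difference between the lines cannot be told apart from a difference between the patients or between the culture histories.

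Smooth muscle cells of the uterus are built around contractile filaments of smooth muscle actin, myosin, calponin, and desmin, and they respond to estrogen and progesterone through nuclear receptors. Leiomyosarcoma is the malignant tumor of this lineage, and its cultured lines can lose the contractile program while keeping vimentin, the intermediate filament of mesenchymal cells. Cells of this kind are held to the matrix by integrins, which bind collagens, laminins, and fibronectin, and they receive growth signals through receptor tyrosine kinases and through the WNT, TGF-beta, and Hippo pathways.

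Between 25585105 and 40709885 reads per DMSO library were counted on genes. Of 60649 genes in the table, 21114 passed the filter on low counts and were tested. Levels are in CPM (gene counts divided by the TMM-scaled library size), with the SD over the libraries of a line. A log2FC is SK-LMS-1 minus SK-UT-1B and is given with its SE. A gene was called when its absolute log2FC was at least 1 and its edgeR adjusted p was under 0.05, and "higher" and "lower" below are used only of called genes and always refer to SK-LMS-1. Of the tested genes, 3584 (17.0%) were called higher and 2978 (14.1%) lower. The libraries of the lines did not overlap in 3482 and 2921 of these. Lack of overlap was not counted over all tested genes, and calling itself favors it. ZEB1, for example, did not overlap and was not called. Where stated below, lack of overlap describes a gene and adds no separate support to its call. SK-UT-1B had at most 3 counts in both libraries for 1048 of the higher genes, and SK-LMS-1 had at most 3 counts in all 4 libraries for 697 of the lower genes. Where a fold is given for such a gene it is a lower bound, computed against a floor of 3 counts per library, which is 0.0777 to 0.122 CPM and covers counting error only. Nothing in the labels says whether the libraries of a line came from separate cultures, so the p-values measure the spread between these libraries, which may be technical. Of the 182 genes named below with values, 84 have an exon that overlaps a gene on the other strand, and since the strand setting of the counts is not given in the sources used here, their values are uncertain to that extent. Replicate libraries also disagreed on sparse genes. In SK-UT-1B, 298 genes were at 0 in a single library but reached 50 counts or more in its replicate, and the pairs of SK-LMS-1 libraries held 269 to 973 such genes.

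The 47 gene lists used here cover lineage, adhesion, signaling, and metabolism. A list is described by how many tested members were higher and lower, and by its median log2FC (0.00 over all tested genes). The shares given above include noncoding genes, while the lists hold mainly protein-coding ones. Of 14730 tested protein-coding genes outside the mitochondrial genome, 21.1% were higher and 17.6% lower. List counts are to be read against these larger shares. Where setting the genes at the floor to their lower bound moved a median, that value is given as well.

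**Figure D1:**
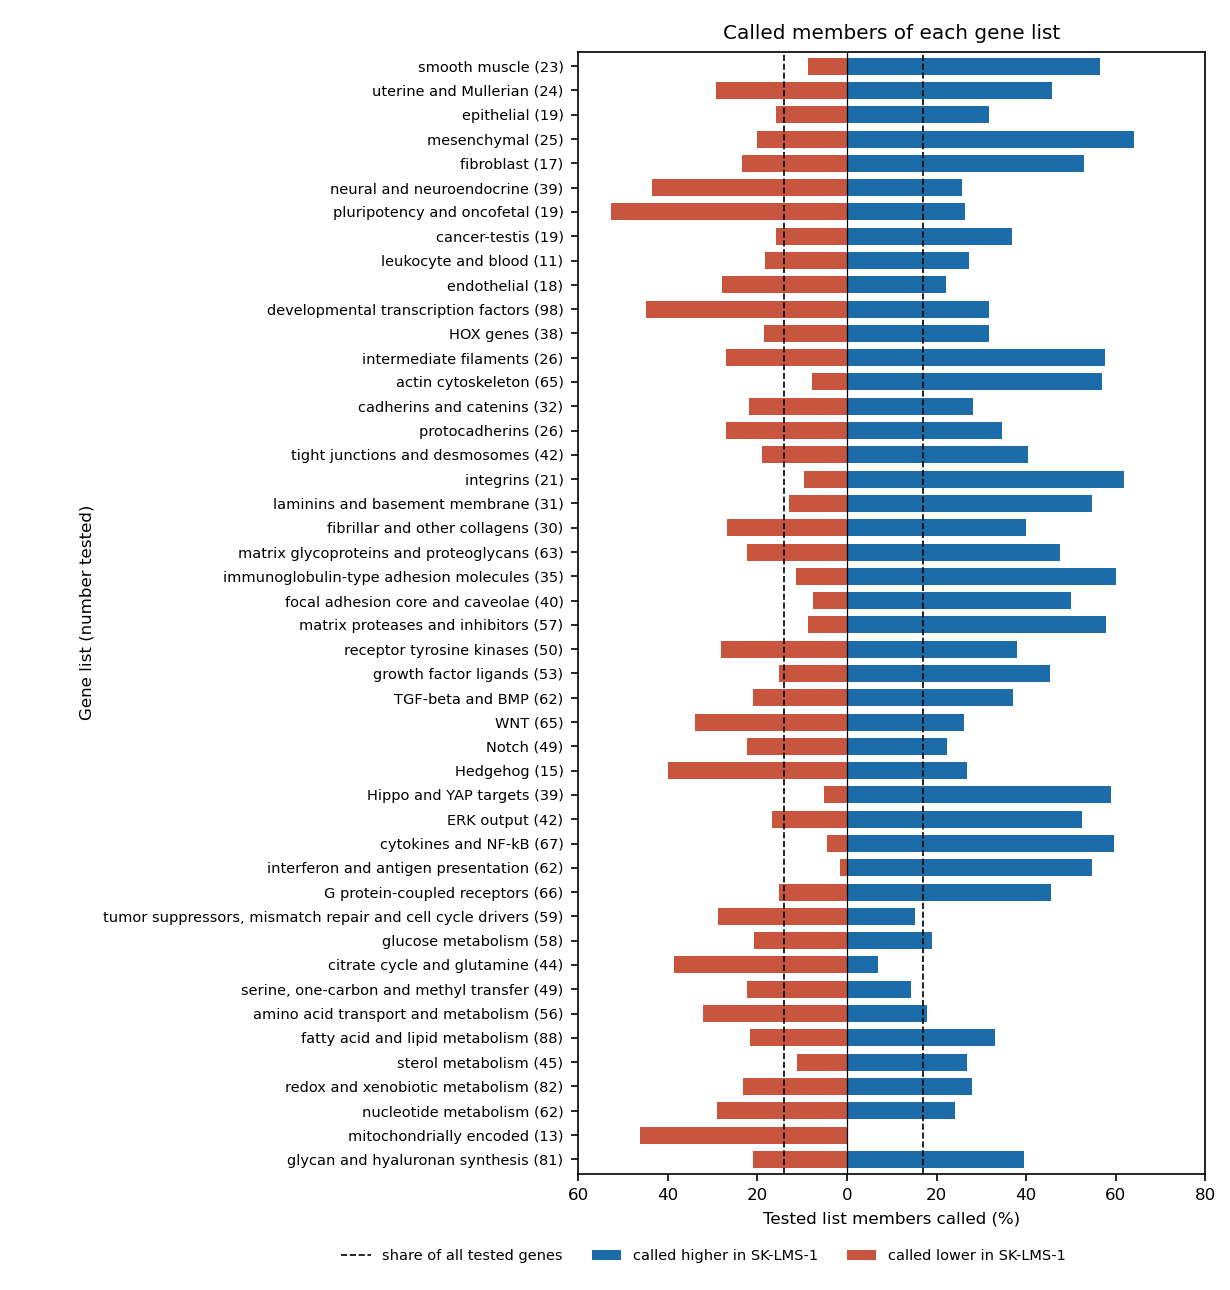
Share of tested members called higher (blue, to the right) or lower (red, to the left) in SK-LMS-1 for each list with at least 10 tested members, in percent, with the number tested in parentheses. Dashed lines mark the shares among all tested genes, 17.0% and 14.1%. Among tested protein-coding genes the shares were 21.1% and 17.6%. The integrin, YAP target, cytokine, and interferon lists reach far to the right, and the citrate cycle and developmental transcription factor lists reach further to the left than to the right.

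Lineage genes were compared first, since the lines carry the same diagnosis but differ in shape. Of the smooth muscle genes, 13 of 23 were higher, while 8 defining markers of the lineage together summed to at most 103.6 CPM in any library. The simple keratins KRT8, KRT18, and KRT19 were higher in SK-LMS-1, the line without the epithelial-like shape, and CDH1 and EPCAM were close to 0 in both. On the lists of developmental transcription factors and of oncofetal genes, more members were lower than higher.

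Of 23 tested smooth muscle genes, 13 were higher and 2 lower, with a median log2FC of 2.15, or 1.60 at the bounds. ACTA2, alpha smooth muscle actin, stood at 16.4, 18.4, 14.6, and 22.9 CPM in SK-LMS-1 and at 3.25 and 3.42 CPM in SK-UT-1B. Its exons overlap FAS on the other strand, and the libraries did not overlap between lines (log2FC 2.43 ± 0.38, edgeR adjusted p = 2.54e-05). ACTG2, the gamma actin of visceral smooth muscle (ENSG00000163017.14, chr2:73892314-73919865), was measured at 10.5, 3.04, 4.67, and 8.09 CPM in SK-LMS-1 and at 0 in both SK-UT-1B libraries, which is at least 71.7-fold higher. CNN1, the thin filament protein calponin 1, was measured at 16.1, 10.9, 4.91, and 11.8 CPM in SK-LMS-1 and at 0.242 and 0.504 CPM in SK-UT-1B, with log2FC 4.80 ± 0.79. Of the genes that smooth muscle shares with other contractile cells, CALD1, MYL9, and CSRP1 are described here, and each was higher. Others, such as TPM2 and VCL, were not called. CALD1, which encodes caldesmon, was 352 ± 26.2 CPM (SD, n = 4) in SK-LMS-1 and 45.7 ± 1.42 CPM (SD, n = 2) in SK-UT-1B. Per kilobase of exon, the SK-LMS-1 level was 36 RPKM for CALD1 against 3.21 RPKM for ACTA2, 3.85 for CNN1, and 1.73 for ACTG2. MYL9, a myosin regulatory light chain, was 170.1 ± 14.8 CPM in SK-LMS-1 and 56 ± 12.8 CPM in SK-UT-1B, and CSRP1, a LIM protein of the actin cytoskeleton, was 328 ± 35.9 CPM in SK-LMS-1 and 25.5 ± 4.72 CPM in SK-UT-1B. DES, the muscle intermediate filament desmin, lay the other way. It had 0 counts in the 4 SK-LMS-1 libraries and reached 9.76 and 5.33 CPM in SK-UT-1B. MYH11, the smooth muscle myosin heavy chain, had 0 counts in every library but SK-UT-1B 4-1, where it reached 0.0692 CPM. Over 8 defining smooth muscle markers, the summed level was 67.6 to 103.6 CPM in SK-LMS-1 and 10.6 to 13.3 CPM in SK-UT-1B.

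Nuclear receptors and genes of the reproductive tract were divided. On the uterine and Müllerian list, 11 of 24 tested genes were higher and 7 lower. The lower ones were 3 against SK-LMS-1 2-1 and 2-3 alone and 4 against 4-1 and 4-2 alone. PGR, the progesterone receptor, had 0 counts in every library. ESR1, estrogen receptor alpha, was measured at 3.35, 2.75, 0.243, and 3.78 CPM in SK-LMS-1 and at 0.415 and 0 CPM in SK-UT-1B and did not pass the test (log2FC 3.58 ± 1.70, edgeR adjusted p = 0.102). Its edgeR adjusted p was 0.017 without SK-LMS-1 4-1 and 0.00936 without SK-UT-1B 4-1, and in DESeq2 it was 0.0215, so the call depends on the libraries and the tool. GREB1, known as a target of estrogen receptors, was measured at 0, 0.145, 0.568, and 0.285 CPM in SK-LMS-1 and at 45.9 and 43.9 CPM in SK-UT-1B. NR3C1, the glucocorticoid receptor, was 196 ± 38.4 CPM in SK-LMS-1 and 41.2 ± 0.659 CPM in SK-UT-1B. NR2F1, an orphan nuclear receptor of mesenchyme, was 86.7 ± 2.9 CPM in SK-LMS-1 and 1.22 ± 0.791 CPM in SK-UT-1B. FOXL2, a transcription factor of the female gonad, and LHX1, a factor of the early kidney and Müllerian duct, had 0 counts in SK-LMS-1 and were at least 68.6-fold and 90.7-fold lower there.

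Simple epithelial keratins were found in SK-LMS-1. KRT8 (ENSG00000170421.12, chr12:52897187-52949954) stood at 97.4, 100.2, 109.5, and 104 CPM in SK-LMS-1 and at 0 in both SK-UT-1B libraries. KRT18, its partner in the filament (ENSG00000111057.11, chr12:52948871-52952906), stood at 103, 144, 143, and 133 CPM in SK-LMS-1 and at 1.14 and 0.212 CPM in SK-UT-1B. Every SK-LMS-1 library thus lay far above both SK-UT-1B libraries for both genes, and KRT8 was at least 1120-fold higher. These genes overlap at their ends on opposite strands, so their separate values are uncertain. KRT19, a further simple keratin, was at least 116-fold higher and EHF, an epithelial ETS factor, at least 194-fold higher, each with 0 counts in SK-UT-1B. The adhesion genes CDH1 and EPCAM were near 0 in both lines. CDH1, E-cadherin, had 0 counts in SK-LMS-1 and 0 and 0.0796 CPM in SK-UT-1B, and EPCAM was seen only in SK-LMS-1 4-2, at 0.752 CPM. SPINT1, an epithelial protease inhibitor, was lower in SK-LMS-1, at 1.05 ± 0.664 CPM in SK-LMS-1 and 24 ± 3.37 CPM in SK-UT-1B. LSR, a tight junction receptor, was lower too, at 0.928 ± 1.34 CPM in SK-LMS-1 and 22.5 ± 3.45 CPM in SK-UT-1B, and missed the threshold against SK-LMS-1 4-1 and 4-2 alone (edgeR adjusted p = 0.059). Of 19 tested keratin genes, 9 were higher and 4 lower. KRT10, a keratin of differentiated epidermis, was among the lower ones, at 8.37 ± 2.15 CPM in SK-LMS-1 and 25 ± 0.792 CPM in SK-UT-1B. Of 19 tested epithelial genes, 6 were higher and 3 lower, with 1 lower against SK-LMS-1 4-1 and 4-2 alone, and 16 more did not pass the filter on low counts. In these bulk libraries, a smaller share of cells with a gene and less of its RNA per cell cannot be told apart.

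Of 25 tested mesenchymal genes, 16 were higher and 5 lower (median log2FC 2.43). VIM, vimentin, was the gene with the largest difference in CPM of all called genes, at 11871, 12855, 12494, and 11786 CPM in SK-LMS-1 and at 4434 and 4330 CPM in SK-UT-1B. CDH2, N-cadherin, was measured at 458, 468, 393, and 412 CPM in SK-LMS-1 and at 4.47 and 3.45 CPM in SK-UT-1B, and no library of SK-UT-1B came near (log2FC 6.77 ± 0.27, edgeR adjusted p = 3.74e-12). The transcription factors that repress epithelial genes were split between the lines. ZEB2 was at 107, 102, 73.6, and 100.5 CPM in SK-LMS-1 and at 0 in SK-UT-1B, and TWIST1 was 16.2 ± 2.79 CPM in SK-LMS-1 and 0.172 ± 0.244 CPM in SK-UT-1B. SNAI2 went the other way, at 25.1, 21.3, 26.8, and 36.2 CPM in SK-LMS-1 and at 282 and 313 CPM in SK-UT-1B, and so did TCF4, a basic helix-loop-helix factor, at 160.4, 128, 102, and 121 CPM in SK-LMS-1 and at 1099 and 1182 CPM in SK-UT-1B. ZEB1 was not called, with 227 ± 12.6 CPM in SK-LMS-1 and 271 ± 17.4 CPM in SK-UT-1B. S100A4, a calcium-binding protein of motile mesenchymal cells, was 19.3 ± 4.81 CPM in SK-LMS-1 and 131 ± 4.64 CPM in SK-UT-1B.

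**Figure D2:**
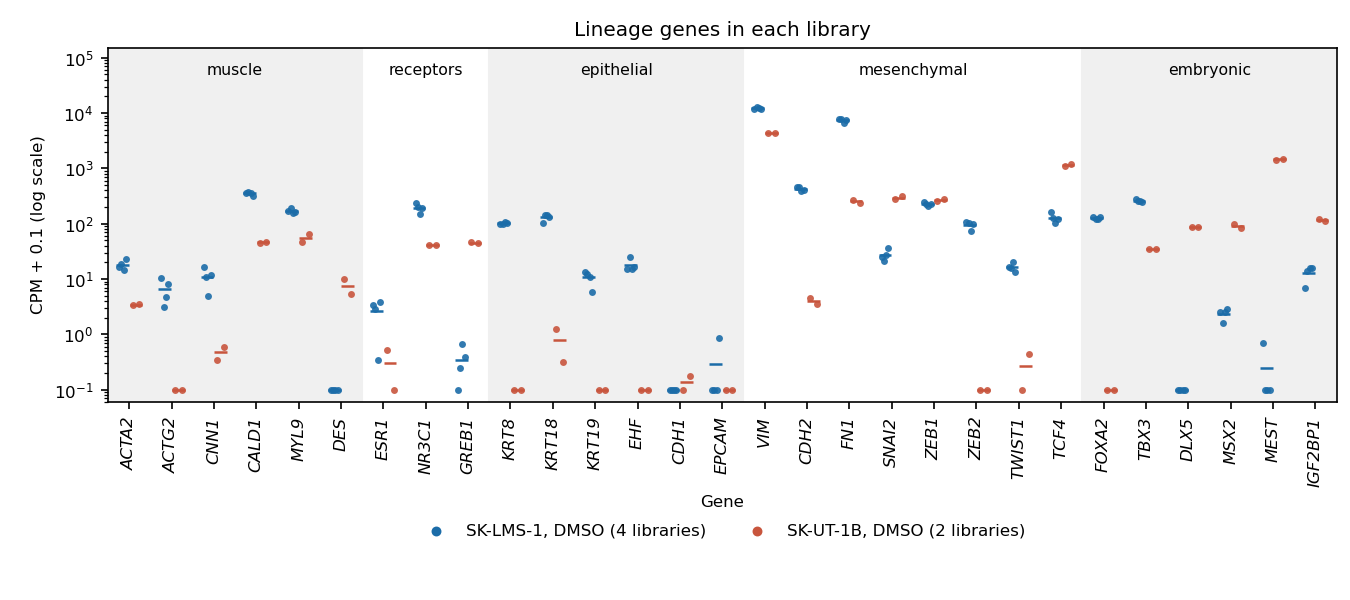
CPM plus 0.1 on a log scale for lineage genes, with 1 point per library (blue, 4 of SK-LMS-1, and red, 2 of SK-UT-1B) and a bar at the mean of each line. KRT8 and FOXA2 sit between 97.4 and 133.3 CPM in SK-LMS-1 and at 0 in SK-UT-1B, while MEST, SNAI2, TCF4, and DLX5 have their larger values in SK-UT-1B.

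Developmental genes were represented by different members in each line. Of 98 tested developmental transcription factors, 31 were higher and 44 lower (median log2FC -1.77, or -1.64 at the bounds). FOXA2, a forkhead factor of endoderm and uterine glands (ENSG00000125798.15, chr20:22580998-22585455), stood at 133, 119.8, 123, and 129.9 CPM in SK-LMS-1 and at 0 in both SK-UT-1B libraries, at least 1378-fold higher. TBX3, a T-box factor of limb and mammary development, was 260 ± 15.3 CPM in SK-LMS-1 and 35.1 ± 0.27 CPM in SK-UT-1B. DLX5 and MSX2, homeobox factors of skeletal and genital development, were lower. DLX5 had 0 counts in SK-LMS-1 against 86.9 and 88.1 CPM, and MSX2 was 2.27 ± 0.543 CPM in SK-LMS-1 and 91.1 ± 10.6 CPM in SK-UT-1B. SOX9 was present in both lines and lower in SK-LMS-1, at 237 ± 21.9 CPM in SK-LMS-1 and 563 ± 4.99 CPM in SK-UT-1B.

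HOX genes, whose clusters set position along the body axis, differed by cluster. In the HOXA cluster 5 of 11 tested genes were higher and 0 lower, while in HOXC 0 of 9 were higher and 5 lower. In HOXB 4 of 9 were higher and 1 lower, and in HOXD 3 of 9 and 1. HOXA13, the most distal member of its cluster, was 98.7 ± 14.1 CPM in SK-LMS-1 and 12.1 ± 3.34 CPM in SK-UT-1B. HOXC13 had 0 counts in SK-LMS-1 and 30.9 and 23.9 CPM in SK-UT-1B. HOXB13, the single lower member of its cluster, was 26.9 ± 1.95 CPM in SK-LMS-1 and 61.2 ± 9.68 CPM in SK-UT-1B. The count of lower HOX genes, 7 of 38, fell to 4 when SK-UT-1B was compared with SK-LMS-1 4-1 and 4-2 alone.

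Oncofetal genes, active in the embryo and again in tumors, were higher in 5 and lower in 10 of 19 tested. MEST, an imprinted gene expressed from the paternal allele (ENSG00000106484.16, chr7:130486171-130506465), was measured at 0.602, 0, 0, and 0 CPM in SK-LMS-1 and at 1427 and 1473 CPM in SK-UT-1B. SK-LMS-1 was at 0 in 3 of its 4 libraries. IGF2BP1, an RNA-binding protein of embryonic tissue, was 13 ± 4.14 CPM in SK-LMS-1 and 117 ± 6.86 CPM in SK-UT-1B, and TET1, which oxidizes methylated cytosine, was 24.4 ± 2.17 CPM in SK-LMS-1 and 169.5 ± 16.3 CPM in SK-UT-1B. The chromatin proteins HMGA1 and HMGA2 ran against this direction. HMGA1 (ENSG00000137309.20, chr6:34236873-34246231) was measured at 5717, 6043, 6933, and 6368 CPM in SK-LMS-1 and at 345 and 275 CPM in SK-UT-1B, and HMGA2 was 289 ± 46 CPM in SK-LMS-1 and 113 ± 11.1 CPM in SK-UT-1B. Cancer-testis genes also differed in which members were on, with MAGEC2 at 89 ± 19.9 CPM in SK-LMS-1 and 0 CPM in SK-UT-1B and PRAME at 0 CPM in SK-LMS-1 and 21.3 ± 8.31 CPM in SK-UT-1B.

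Neural genes were lower in 17 and higher in 10 of 39 tested (median log2FC -1.30), with different neurofilament members in each line. NEFL, the light neurofilament chain, was at 36.2, 42.1, 50.5, and 40.6 CPM in SK-LMS-1 and 0 in SK-UT-1B. INA, alpha-internexin, was at 0 in SK-LMS-1 and 82.1 and 95.7 CPM in SK-UT-1B. Both are also intermediate filaments. DPYSL3, which binds tubulin in growing axons, was 455 ± 25.4 CPM in SK-LMS-1 and 0.259 ± 0.121 CPM in SK-UT-1B, and SOX4 was 316 ± 31 CPM in SK-LMS-1 and 963 ± 56.1 CPM in SK-UT-1B. The count of lower neural genes was 9 against SK-LMS-1 4-1 and 4-2 alone and 11 against 2-1 and 2-3 alone. Leukocyte and endothelial markers were low. PTPRC, the pan-leukocyte gene CD45, reached at most 0.471 CPM in any library, and 6 leukocyte markers summed to at most 4.64 CPM. PECAM1, an endothelial adhesion gene, stood at 4.96, 5.32, 1.46, and 2.98 CPM in SK-LMS-1 and at 0 in both SK-UT-1B libraries. The endothelial receptor kinase TIE1 and the ETS factor FLI1 were nevertheless at 77.3 and 33.8 CPM in SK-LMS-1 and 0 in SK-UT-1B, and FLT4, the receptor of VEGF-C, was at 0 in SK-LMS-1 and 14.9 CPM in SK-UT-1B. Over 6 defining endothelial markers the sum was 3.52 to 6.92 CPM in SK-LMS-1 and 1.22 to 2.29 CPM in SK-UT-1B. Fibroblast markers were abundant, as 8 of them summed to 2296 to 2656 CPM in SK-LMS-1 and 4576 to 4745 CPM in SK-UT-1B. All 8 were above the floor in SK-LMS-1, while in SK-UT-1B 5 were above it and 3 had 0 counts. On the longer fibroblast list, 9 of 17 tested genes were higher and 4 lower (median log2FC 2.43). The 8 epithelial markers summed to 217 to 266 CPM and 0.637 to 1.39 CPM, most of it in the keratins described above.

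Adhesion and matrix genes were compared next. SK-LMS-1 had more RNA of fibronectin, of COL1A1, COL6A1, COL6A2, and COL6A3, and of caveolin 1, SERPINB2, and PLAUR, and SK-UT-1B had more of COL3A1, COL5A2, versican, tenascin C, fibulin 1, and connexin 43. Integrins were higher in 13 and lower in 2 of 21 tested (median log2FC 2.50), and matrix proteases and their inhibitors in 33 and 5 of 57 (median 2.65, or 2.44 at the bounds). The lower integrins were 1 against SK-LMS-1 4-1 and 4-2 alone, and the lower protease genes 3 against 2-1 and 2-3 alone.

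Fibrillar collagens did not share a direction. COL1A1, the main chain of type I collagen, was measured at 676, 714, 772, and 709 CPM in SK-LMS-1 and at 21.8 and 18.8 CPM in SK-UT-1B. COL1A2, the other chain of type I collagen, was not called, at 1189 ± 88.1 CPM in SK-LMS-1 and 1198 ± 65.8 CPM in SK-UT-1B (log2FC -0.01 ± 0.11, edgeR adjusted p = 1). COL3A1, the chain of type III collagen in soft tissue and uterus (ENSG00000168542.16, chr2:188974373-189012746), was measured at 84.8, 94.8, 134, and 91.9 CPM in SK-LMS-1 and at 2988 and 3051 CPM in SK-UT-1B. COL1A1 and COL3A1 therefore ranked in opposite order. Per kilobase of exon, COL1A1 had 79.7 RPKM against 15 for COL3A1 in SK-LMS-1, and 2.26 against 447 in SK-UT-1B. COL5A2, which regulates fibril width, followed COL3A1, at 69.5 ± 4.89 CPM in SK-LMS-1 and 1072 ± 22.1 CPM in SK-UT-1B. COL6A1 and COL6A2, chains of the beaded microfibrils of type VI collagen, were higher, at 821 ± 139 CPM in SK-LMS-1 and 76.1 ± 0.628 CPM in SK-UT-1B and at 1196 ± 121 CPM in SK-LMS-1 and 103 ± 12.8 CPM in SK-UT-1B. COL6A3, their partner chain, was at 1794, 1741, 1872, and 1714 CPM against 0, at least 19411-fold higher. COL9A2, a chain of cartilage type IX collagen, was 1.63 ± 0.534 CPM in SK-LMS-1 and 162 ± 7.07 CPM in SK-UT-1B. Over the list, 12 of 30 tested collagens were higher and 8 lower.

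Among other matrix genes, FN1, fibronectin, was measured at 7879, 7706, 6732, and 7478 CPM in SK-LMS-1 and at 272 and 237 CPM in SK-UT-1B (log2FC 4.87 ± 0.14, edgeR adjusted p = 5.37e-16). LTBP1, which holds latent TGF-beta in the matrix, was 2011 ± 50.3 CPM in SK-LMS-1 and 34.3 ± 4.31 CPM in SK-UT-1B. The large proteoglycan VCAN, versican, lay the other way at 212, 173, 159.6, and 171 CPM in SK-LMS-1 and at 2384 and 2475 CPM in SK-UT-1B. TNC, tenascin C, was 675 ± 16.7 CPM in SK-LMS-1 and 2433 ± 194 CPM in SK-UT-1B, FBLN1, fibulin 1, was 6.34 ± 1.5 CPM in SK-LMS-1 and 522 ± 71.8 CPM in SK-UT-1B, and MGP, which inhibits calcification, was 5.46 ± 2.79 CPM in SK-LMS-1 and 562 ± 170.1 CPM in SK-UT-1B. FREM2 was found almost wholly in SK-UT-1B. It encodes a basement membrane protein of the embryonic skin and kidney (ENSG00000150893.11, chr13:38687077-38887131), and it was measured at 0.0287, 0, 0, and 0 CPM in SK-LMS-1 and at 2779 and 2598 CPM in SK-UT-1B, at least 27291-fold below SK-UT-1B for SK-LMS-1 (edgeR adjusted p = 4.62e-06). Of 12 laminin chain genes, 7 were higher and 1 lower. LAMB3, a chain of the laminin under squamous epithelia, was at 185, 217, 211, and 198 CPM against 0. The lower one was LAMC3, a gamma chain, at 0.562 ± 0.738 CPM in SK-LMS-1 and 69.9 ± 2.85 CPM in SK-UT-1B. LAMC3 missed the threshold under the replicate block described in the last section (log2FC -6.84, edgeR adjusted p = 0.246). NID1, which links laminin to collagen IV, was 61.7 ± 4.97 CPM in SK-LMS-1 and 460.2 ± 49.2 CPM in SK-UT-1B.

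The integrin chains of SK-LMS-1 included the beta 1 subunit, shared by most matrix receptors, and its laminin-binding partner alpha 3. ITGB1 was measured at 1554, 1572, 1685, and 1475 CPM in SK-LMS-1 and at 232 and 253 CPM in SK-UT-1B. ITGA3 was measured at 1183, 1147, 1105, and 1133 CPM in SK-LMS-1 and at 3.25 and 0.133 CPM in SK-UT-1B, far apart in every library (log2FC 9.48 ± 1.18, edgeR adjusted p = 0.000677). ITGB5, a chain of vitronectin receptors, was 355 ± 33 CPM in SK-LMS-1 and 28.2 ± 3.42 CPM in SK-UT-1B. The lower members were ITGB4 and ITGA9, and ITGA9 had 0 counts in SK-LMS-1 and 3.88 and 4.99 CPM in SK-UT-1B. Immunoglobulin-type adhesion molecules were higher in 21 and lower in 4 of 35, with ALCAM at 792 ± 84 CPM in SK-LMS-1 and 1.45 ± 2.04 CPM in SK-UT-1B and THY1 at 208 ± 21.9 CPM in SK-LMS-1 and 0 CPM in SK-UT-1B. Under the replicate block ALCAM just missed the threshold (log2FC 9.02, edgeR adjusted p = 0.0502).

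Tight junction and desmosome genes were higher in 17 and lower in 8 of 42. GJA1, which encodes the gap junction protein connexin 43, was measured at 54.3, 57.3, 40.4, and 50.1 CPM in SK-LMS-1 and at 720.1 and 789 CPM in SK-UT-1B. The desmosomal cadherin DSG2 was 28.5 ± 3.53 CPM in SK-LMS-1 and 109.8 ± 0.728 CPM in SK-UT-1B, and PERP, a desmosome component, was 203 ± 12.2 CPM in SK-LMS-1 and 17.4 ± 0.126 CPM in SK-UT-1B. JUP, the junction protein plakoglobin, was 2.73 ± 0.882 CPM in SK-LMS-1 and 26.4 ± 5.26 CPM in SK-UT-1B. CAV1, the coat protein of caveolae, was measured at 1023, 948, 704, and 958 CPM in SK-LMS-1 and at 0 and 0.318 CPM in SK-UT-1B. Neither SK-UT-1B library reached 1 CPM. TNS4, a focal adhesion tensin, was the opposite case, with 0 counts in all SK-LMS-1 libraries and 125 and 105 CPM. Actin cytoskeleton genes were higher in 37 and lower in 5 of 65, or 3 against SK-LMS-1 2-1 and 2-3 alone. The higher ones included the crosslinkers FLNA, at 4892 ± 398 CPM in SK-LMS-1 and 1118 ± 128 CPM in SK-UT-1B, and ACTN4, at 1597 ± 146 CPM in SK-LMS-1 and 256 ± 27.9 CPM in SK-UT-1B. MYH10, the nonmuscle myosin IIB heavy chain, was lower, at 27.3 ± 5.41 CPM in SK-LMS-1 and 344 ± 13.7 CPM in SK-UT-1B.

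The plasminogen activator system, which cuts matrix at the cell surface, was represented in SK-LMS-1. SERPINB2, an inhibitor of urokinase, was at 476, 386, 311, and 361 CPM in SK-LMS-1 and 0 in SK-UT-1B, at least 4181-fold higher. PLAUR, the urokinase receptor, was 104 ± 11.2 CPM in SK-LMS-1 and 11.2 ± 0.213 CPM in SK-UT-1B, and TIMP1, an inhibitor of metalloproteinases, was 264 ± 42.3 CPM in SK-LMS-1 and 66.7 ± 10.3 CPM in SK-UT-1B.

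**Figure D3:**
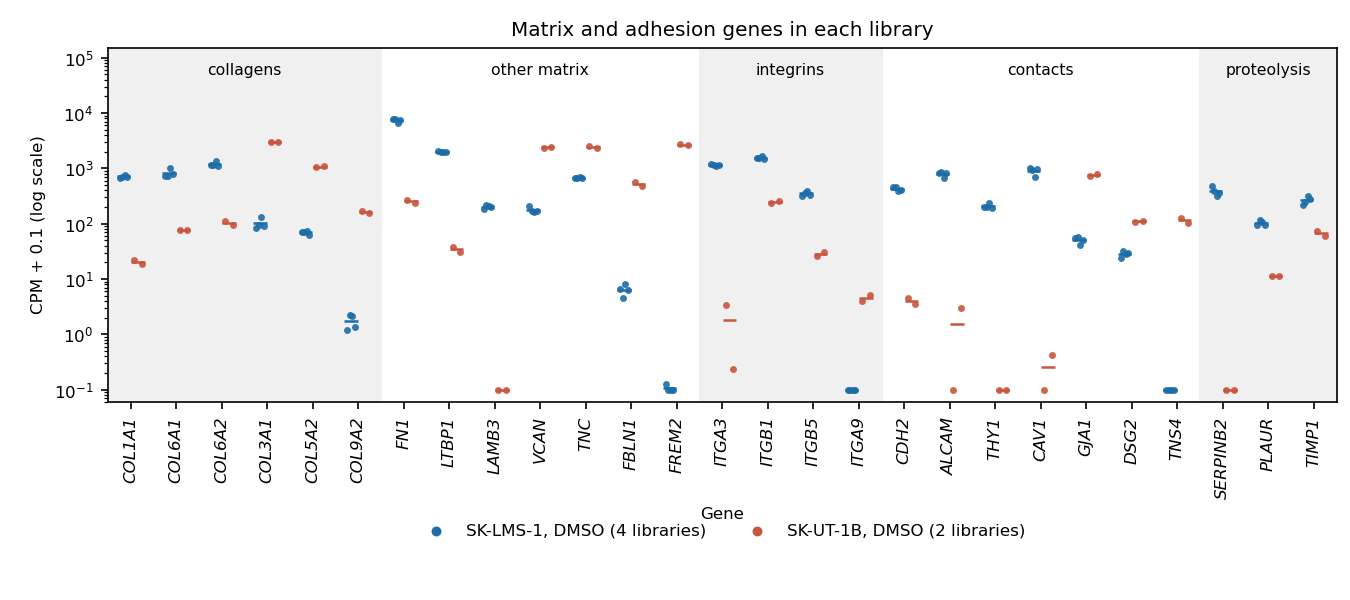
CPM plus 0.1 on a log scale for matrix and adhesion genes, with 1 point per library (blue, SK-LMS-1, and red, SK-UT-1B) and a bar at the mean. COL1A1 and COL3A1 stand in opposite order in the lines, and FREM2 and TNS4 are at or near 0 in every SK-LMS-1 library.

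Signaling genes were compared by pathway, from receptors to their outputs. SK-LMS-1 had more RNA of the receptor kinases MET, EGFR, and AXL, of DKK1, DKK3, and SFRP1 among the WNT antagonists, of INHBA and FST, and of 23 Hippo and YAP genes. SK-UT-1B had more of FGFR1 and PDGFRA, of the WNT pathway genes LEF1, AXIN2, ZNRF3, and NKD1, and of ID1, ID2, and ID3.

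Receptor tyrosine kinases were higher in 19 and lower in 14 of 50 tested. MET, the hepatocyte growth factor receptor (ENSG00000105976.16, chr7:116672196-116798377), was measured at 1591, 1469, 1263, and 1432 CPM in SK-LMS-1 and at 0.381 and 1.8 CPM in SK-UT-1B. EGFR, the epidermal growth factor receptor, was measured at 786, 773, 697, and 733 CPM in SK-LMS-1 and at 3.67 and 5.7 CPM in SK-UT-1B. AXL was measured at 1753, 1704, 1661, and 1697 CPM in SK-LMS-1 and at 26.9 and 21.2 CPM in SK-UT-1B, and its ligand GAS6 was higher too, at 443 ± 83.5 CPM in SK-LMS-1 and 27.5 ± 1.84 CPM in SK-UT-1B. None of the 3 receptors overlapped between lines, with log2FC of 10.29, 7.30, and 6.15 in that order. FGFR1 lay the other way, at 254, 262, 303, and 259 CPM in SK-LMS-1 and at 1112 and 998 CPM in SK-UT-1B, and PDGFRA was 114 ± 11.9 CPM in SK-LMS-1 and 405 ± 14.1 CPM in SK-UT-1B.

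WNT ligands stabilize beta-catenin, which with LEF/TCF factors turns on a set of feedback genes. Of these, LEF1, AXIN2, ZNRF3, and NKD1 are described here, and each was lower. They are a choice from the list and do not stand for all feedback genes of the pathway. LEF1 itself (ENSG00000138795.10, chr4:108047545-108168956) was measured at 12, 10.9, 4.62, and 6.95 CPM in SK-LMS-1 and at 292 and 245 CPM in SK-UT-1B. AXIN2, a scaffold of the complex that degrades beta-catenin, was measured at 1.32, 2.35, 4.83, and 5.39 CPM in SK-LMS-1 and at 124 and 119.5 CPM in SK-UT-1B. ZNRF3, which removes WNT receptors from the surface, was 20.2 ± 4.91 CPM in SK-LMS-1 and 259 ± 4.99 CPM in SK-UT-1B, and NKD1, an inhibitor induced by the pathway, was 0.171 ± 0.277 CPM in SK-LMS-1 and 70.7 ± 5.52 CPM in SK-UT-1B. The secreted antagonists DKK1, DKK3, and SFRP1 were higher. DKK1, which blocks the LRP coreceptors (ENSG00000107984.10, chr10:52314281-52318042), was measured at 451, 450.1, 389.7, and 414 CPM in SK-LMS-1 and at 0 in both SK-UT-1B libraries, at least 4645-fold higher (edgeR adjusted p = 4.15e-16). DKK3 was 1334 ± 63 CPM in SK-LMS-1 and 1.64 ± 0.903 CPM in SK-UT-1B, and SFRP1, which binds WNT ligands, was 1580 ± 136 CPM in SK-LMS-1 and 98.5 ± 4.28 CPM in SK-UT-1B. CTNNB1, the gene of beta-catenin, was 252 ± 18.9 CPM in SK-LMS-1 and 257 ± 14.9 CPM in SK-UT-1B and overlapped between the lines (log2FC -0.03 ± 0.14, edgeR adjusted p = 0.956). Over the whole list of 65 tested genes, 17 were higher and 22 lower, with a median log2FC of -0.23, or -0.35 at the bounds, so the list had no single direction.

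Of 62 tested genes of the TGF-beta and BMP list, 23 were higher and 13 lower. INHBA, the activin A subunit, was measured at 358, 332, 362, and 378 CPM in SK-LMS-1 and at 0.138 and 0.053 CPM in SK-UT-1B, and FST, follistatin, which binds activin, was at 309, 262, 283, and 231 CPM against 0. TGFB1 was 397 ± 36.2 CPM in SK-LMS-1 and 88.6 ± 25.4 CPM in SK-UT-1B. ID1, ID2, and ID3 were lower. ID3, an inhibitor of basic helix-loop-helix factors that BMP induces, was measured at 29.2, 40.6, 43.1, and 33.5 CPM in SK-LMS-1 and at 463 and 385 CPM in SK-UT-1B. ID2 was 2.19 ± 1.72 CPM in SK-LMS-1 and 159 ± 8.5 CPM in SK-UT-1B, and ID1 was 27.4 ± 11.8 CPM in SK-LMS-1 and 75.9 ± 2.25 CPM in SK-UT-1B.

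YAP and TAZ are coactivators that enter the nucleus when Hippo kinases are inactive and act through TEAD factors. Of 39 tested Hippo and YAP genes, 23 were higher and 2 lower (median log2FC 1.24). NT5E, the 5'-nucleotidase CD73 (ENSG00000135318.12, chr6:85449584-85495791), was measured at 3223, 2920, 2633, and 2839 CPM in SK-LMS-1 and at 7.1 and 7.32 CPM in SK-UT-1B. CCN1, a matricellular protein, was measured at 604, 704, 717, and 651 CPM in SK-LMS-1 and at 0 and 0.477 CPM in SK-UT-1B, and CCN2, connective tissue growth factor (ENSG00000118523.6, chr6:131948176-131951372), was measured at 170.1, 161, 184, and 147 CPM in SK-LMS-1 and at 9.59 and 8.04 CPM in SK-UT-1B. YAP1 itself was 363 ± 14.9 CPM in SK-LMS-1 and 142 ± 1.2 CPM in SK-UT-1B. TEAD2, at 33.3 ± 4 CPM in SK-LMS-1 and 178 ± 19.6 CPM in SK-UT-1B, and FRMD6, an upstream regulator, at 294 ± 56.3 CPM in SK-LMS-1 and 778 ± 28.6 CPM in SK-UT-1B, were lower. The number of lower genes was 4 without SK-LMS-1 2-1, without SK-LMS-1 4-2, and against SK-LMS-1 4-1 and 4-2 alone.

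Promoter sequence is printed for the 2 YAP list members that were higher and held the TEAD motif CATTCC more than once, and for SERPINB2, a higher protease inhibitor whose promoter holds an AP-1 motif (TGANTCA). Both strands were searched over the 250 bases before the gene start in RefSeq promoters of GRCh38.p14, and the matches did not overlap each other. CATTCC or its reverse complement occurred in 11.9% of 35116 promoters and at least 2 times in 0.94%. It was found in 6 of the 16 higher YAP list genes with a promoter in the table. TGANTCA occurred in 6.57% of all promoters and in 3 of the 16 higher protease list genes with a promoter. List members that were not higher are not counted here, and the YAP list was chosen for targets of YAP. These shares therefore have no bearing on the line difference. Capitals mark the matches, and each sequence is written 5' to 3' on the strand of its gene. CCN2 lies on the minus strand at chr6:131951373-131951622, inside the long noncoding gene LINC01013 of the other strand. ANKRD1, a YAP target of muscle, lies on the minus strand at chr10:90921088-90921337, and SERPINB2 on the plus strand at chr18:63887455-63887704, within an intron of a longer SERPINB2 transcript.
CCN2: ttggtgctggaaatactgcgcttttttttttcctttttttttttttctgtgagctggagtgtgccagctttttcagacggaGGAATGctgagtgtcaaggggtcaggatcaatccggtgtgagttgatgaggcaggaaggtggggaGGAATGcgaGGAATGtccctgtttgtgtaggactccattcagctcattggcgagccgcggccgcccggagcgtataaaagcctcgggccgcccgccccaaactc
ANKRD1: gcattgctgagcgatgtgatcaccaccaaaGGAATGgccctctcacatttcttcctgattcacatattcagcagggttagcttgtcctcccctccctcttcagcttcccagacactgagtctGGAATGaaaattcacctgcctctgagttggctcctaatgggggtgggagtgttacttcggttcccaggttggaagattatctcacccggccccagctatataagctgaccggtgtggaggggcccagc
SERPINB2: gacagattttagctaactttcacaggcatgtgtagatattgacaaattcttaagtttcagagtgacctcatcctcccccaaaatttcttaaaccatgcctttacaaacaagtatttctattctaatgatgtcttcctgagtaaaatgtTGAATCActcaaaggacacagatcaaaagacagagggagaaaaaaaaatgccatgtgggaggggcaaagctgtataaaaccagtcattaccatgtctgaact
CCN2 had 3 matches in this window, which start 169, 104, and 95 bases before the gene start, and ANKRD1 had 2. ANKRD1 was low in CPM, at 6.42, 6.01, 9.05, and 2.75 CPM in SK-LMS-1 and at 0 and 0.159 CPM in SK-UT-1B. A match describes these letters only, and no factor binding was measured.

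Output genes of ERK, the kinase below growth factor receptors and RAS, were higher in 22 and lower in 7 of 42. FOSL1, an AP-1 subunit, was measured at 409, 500.5, 667, and 525 CPM in SK-LMS-1 and at 33.2 and 28.9 CPM in SK-UT-1B, and CCND1, cyclin D1, was 1550 ± 55.9 CPM in SK-LMS-1 and 233 ± 11 CPM in SK-UT-1B. DUSP6, the phosphatase that feeds back on ERK, was 92.9 ± 8.44 CPM in SK-LMS-1 and 281 ± 3.83 CPM in SK-UT-1B, and the inhibitor SPRED1 was 246 ± 21.1 CPM in SK-LMS-1 and 542 ± 35.6 CPM in SK-UT-1B. MYC was lower in SK-LMS-1, at 165, 150.1, 132, and 162 CPM in SK-LMS-1 and at 418 and 349 CPM in SK-UT-1B.

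Notch receptors are cut by gamma secretase, which the inhibitor used elsewhere in the study blocks, and the Notch list stood at 11 higher and 11 lower of 49. The ligand JAG1 was 171 ± 11.7 CPM in SK-LMS-1 and 9.14 ± 2.31 CPM in SK-UT-1B, DNER, a noncanonical ligand, was 127 ± 9.65 CPM in SK-LMS-1 and 0.548 ± 0.4 CPM in SK-UT-1B, and the receptor NOTCH1 was 37.8 ± 5.48 CPM in SK-LMS-1 and 104 ± 20.8 CPM in SK-UT-1B. HES1, a target of Notch, was 25.2 ± 6.88 CPM in SK-LMS-1 and 7.8 ± 0.823 CPM in SK-UT-1B. Hedgehog genes were higher in 4 and lower in 6 of 15, and without SK-UT-1B 4-2 the higher ones were 2. The lower ones were 3 against either pair of SK-LMS-1 libraries alone. SMO, the signal transducer, was 2.46 ± 1.8 CPM in SK-LMS-1 and 93.5 ± 26.4 CPM in SK-UT-1B, and HHIP, which binds Hedgehog ligands, was 133 ± 18.4 CPM in SK-LMS-1 and 0.0928 ± 0.131 CPM in SK-UT-1B.

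Cytokine and NF-kB genes were higher in 40 and lower in 3 of 67 tested, with the highest median of these signaling lists (log2FC 4.48, or 2.64 at the bounds), and 20 of the 40 were at the floor in SK-UT-1B. Without SK-LMS-1 4-2 the lower ones were 5. LIF, a cytokine of the IL-6 family, was measured at 77.1, 92.7, 106, and 104 CPM in SK-LMS-1 and at 1.11 and 1.72 CPM in SK-UT-1B. CXCL8, a chemokine for neutrophils, stood at 48.9, 45.9, 35.3, and 43.2 CPM in SK-LMS-1 and 0 in SK-UT-1B, and IL6 was measured at 1.92, 3.95, 2.23, and 2.9 CPM in SK-LMS-1 and at 0 in both SK-UT-1B libraries. Interferon and antigen presentation genes were higher in 34 and lower in 1 of 62 (median log2FC 2.30, or 2.24 at the bounds). HLA-C was 374 ± 31.8 CPM in SK-LMS-1 and 58.6 ± 6.14 CPM in SK-UT-1B and HLA-E was 308 ± 15.1 CPM in SK-LMS-1 and 68 ± 10.4 CPM in SK-UT-1B, although reads of HLA genes may be split among near-identical copies. B2M, the shared light chain of class I molecules, was 438 ± 26.1 CPM in SK-LMS-1 and 223 ± 21.3 CPM in SK-UT-1B and fell just short of the fold threshold (log2FC 0.98 ± 0.13), which it passed without SK-UT-1B 4-2 (log2FC 1.08). The single lower gene, joined by 1 or 2 more when SK-LMS-1 2-3, SK-LMS-1 4-2, or SK-UT-1B 4-2 was left out, was CD276, an immune checkpoint ligand, at 53.1 ± 8.45 CPM in SK-LMS-1 and 133 ± 5.97 CPM in SK-UT-1B. G protein-coupled receptors were higher in 30 and lower in 10 of 66, or 6 against SK-LMS-1 2-1 and 2-3 alone, with LPAR1, a receptor for lysophosphatidic acid, at 730.4 ± 134 CPM in SK-LMS-1 and 0.371 ± 0.525 CPM in SK-UT-1B.

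Tumor suppressor and cell cycle genes were higher in 9 and lower in 17 of 59. MDM2, a ubiquitin ligase, was 83.2 ± 3.36 CPM in SK-LMS-1 and 185 ± 6.87 CPM in SK-UT-1B. RB1 was 111 ± 12.8 CPM in SK-LMS-1 and 114 ± 16.5 CPM in SK-UT-1B and was not called. CDKN2B, the CDK4/6 inhibitor p15, was measured at 80.6, 66.6, 52.4, and 74.9 CPM in SK-LMS-1 and at 0.312 and 0.318 CPM in SK-UT-1B. CDKN2A, its neighbor, was 38.8 ± 6.9 CPM in SK-LMS-1 and 9.15 ± 1.12 CPM in SK-UT-1B.

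**Figure D4:**
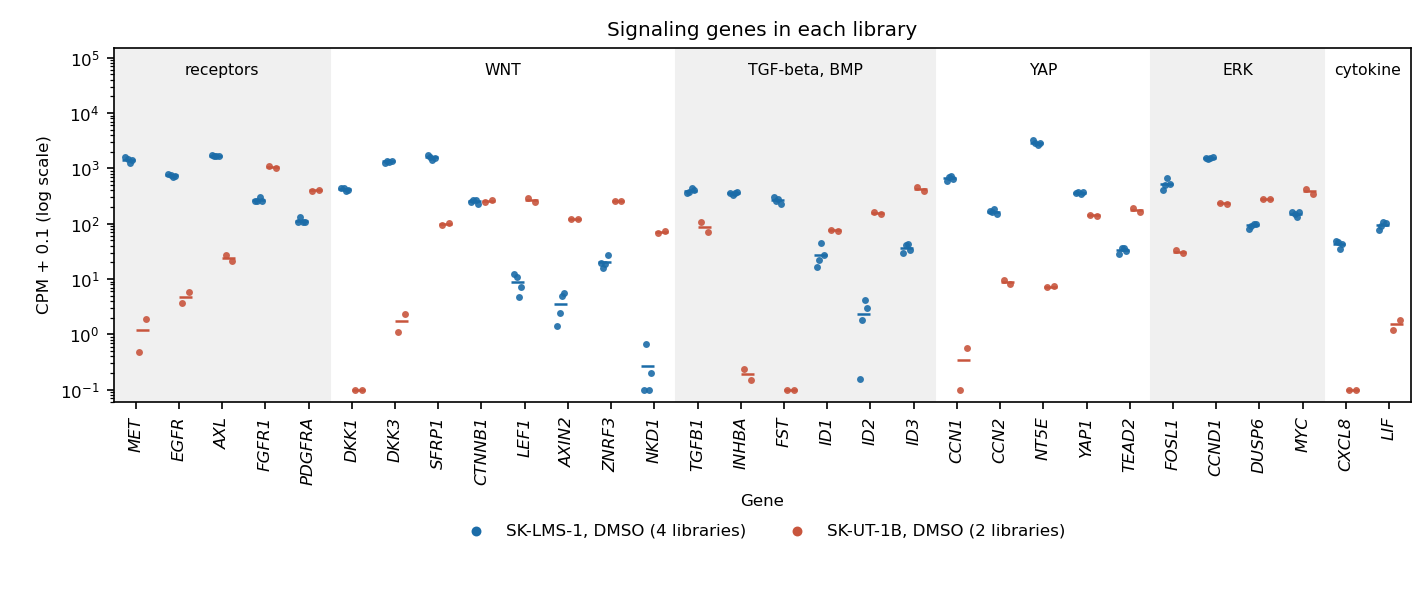
CPM plus 0.1 on a log scale for signaling genes, with 1 point per library (blue, SK-LMS-1, and red, SK-UT-1B) and a bar at the mean. The WNT antagonists DKK1, DKK3, and SFRP1 are high in SK-LMS-1, the WNT pathway genes LEF1, AXIN2, ZNRF3, and NKD1 are high in SK-UT-1B, and CTNNB1 is level.

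Metabolic lists were compared last. Glucose metabolism had 11 higher and 12 lower of 58 tested genes and a median log2FC of -0.01. The citrate cycle and glutamine list lay on the lower side, with 3 higher and 17 lower of 44 (median log2FC -0.80). Of the 13 mitochondrially encoded genes, 6 were lower and 0 higher.

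In glycolysis, several abundant enzymes were not called. GAPDH was 4446 ± 395 CPM in SK-LMS-1 and 3056 ± 423 CPM in SK-UT-1B, and PKM was 2038 ± 237 CPM in SK-LMS-1 and 1740 ± 167 CPM in SK-UT-1B. LDHA, the lactate dehydrogenase chain of glycolytic tissue, was 998 ± 29.2 CPM in SK-LMS-1 and 890.1 ± 96.9 CPM in SK-UT-1B. LDHB, the chain of oxidative tissue, was lower, at 2.46, 5.43, 7.79, and 3.11 CPM in SK-LMS-1 and at 28.2 and 16.1 CPM in SK-UT-1B. GPI was 304 ± 8.13 CPM in SK-LMS-1 and 751 ± 50.6 CPM in SK-UT-1B, TPI1 was 224 ± 25.3 CPM in SK-LMS-1 and 479 ± 85 CPM in SK-UT-1B, and PGAM1 was 53.8 ± 6.78 CPM in SK-LMS-1 and 135 ± 20.1 CPM in SK-UT-1B, all lower. The log2FC of TPI1 was -0.95 without SK-UT-1B 4-1, under the fold threshold.

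PPARGC1A, the coactivator PGC-1alpha of mitochondrial biogenesis (ENSG00000109819.9, chr4:23755041-23904089), was measured at 0, 0, 0.609, and 0 CPM in SK-LMS-1 and at 123 and 118 CPM in SK-UT-1B. SK-LMS-1 was at 0 in 3 of its 4 libraries. PPARGC1A missed the threshold under the replicate block described in the last section (log2FC -9.17, edgeR adjusted p = 0.0716). IDH2, the mitochondrial isocitrate dehydrogenase, was 34.6 ± 3.19 CPM in SK-LMS-1 and 157 ± 14.1 CPM in SK-UT-1B. ACLY and FASN, which make cytosolic acetyl-CoA and palmitate, were lower, at 136 ± 5.28 CPM in SK-LMS-1 and 419 ± 38.1 CPM in SK-UT-1B and at 139, 181, 192, and 172 CPM in SK-LMS-1 and at 823 and 693 CPM in SK-UT-1B. The malic enzymes ME1 and ME3, which yield NADPH from malate, had 0 counts in SK-UT-1B and 33.9 and 46.1 CPM in SK-LMS-1. MT-ND1, a subunit of complex I, was 1156 ± 81.2 CPM in SK-LMS-1 and 3422 ± 316 CPM in SK-UT-1B. MT-ND4 was 4330 ± 324 CPM in SK-LMS-1 and 8828 ± 1295 CPM in SK-UT-1B, and MT-CO3 was 2906 ± 102 CPM in SK-LMS-1 and 6473 ± 1660 CPM in SK-UT-1B. Without SK-UT-1B 4-1 the number of lower mitochondrial genes was 3, and MT-ND4 and MT-CO3, each with a log2FC of -0.91, were not among them.

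Amino acid transport and metabolism genes were higher in 10 and lower in 18 of 56, and serine and one-carbon genes in 7 and 11 of 49. PHGDH, the first enzyme of serine synthesis, was 69.8 ± 9.97 CPM in SK-LMS-1 and 230.1 ± 17.7 CPM in SK-UT-1B. SLC7A5, the carrier of large neutral amino acids, was measured at 49, 67.2, 64.9, and 87.5 CPM in SK-LMS-1 and at 720.5 and 574 CPM in SK-UT-1B, while SLC38A2, a glutamine carrier, was higher, at 1174 ± 155 CPM in SK-LMS-1 and 504 ± 43.6 CPM in SK-UT-1B. TYMS, thymidylate synthase, was 80.9 ± 4.72 CPM in SK-LMS-1 and 341 ± 17.8 CPM in SK-UT-1B, and PAICS, of purine synthesis, was 184 ± 18.3 CPM in SK-LMS-1 and 656 ± 4.97 CPM in SK-UT-1B. NNMT, which methylates nicotinamide, was at 114, 92.4, 101, and 106 CPM in SK-LMS-1 and 0 in SK-UT-1B. ODC1, the first enzyme of polyamine synthesis, was 466 ± 49.6 CPM in SK-LMS-1 and 95.4 ± 5.31 CPM in SK-UT-1B. CKB, brain-type creatine kinase, was 8.74 ± 1.65 CPM in SK-LMS-1 and 194 ± 39.5 CPM in SK-UT-1B.

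In redox metabolism, NQO1, a quinone reductase driven by NRF2, was measured at 25.5, 20.5, 17.7, and 14.3 CPM in SK-LMS-1 and at 302 and 298 CPM in SK-UT-1B. PRDX3, the mitochondrial peroxiredoxin, was 82.8 ± 9.17 CPM in SK-LMS-1 and 237 ± 15.3 CPM in SK-UT-1B. The extracellular enzymes ran opposite, with GPX3 at 194 ± 8.39 CPM in SK-LMS-1 and 18.6 ± 5.04 CPM in SK-UT-1B and SOD3 at 87, 113, 132, and 99.1 CPM in SK-LMS-1 and at 0.0692 and 0.0796 CPM in SK-UT-1B. In sterol metabolism, 12 of 45 genes were higher and 5 lower, and HMGCS1, an early enzyme of the pathway, was 19.5 ± 3.12 CPM in SK-LMS-1 and 56.2 ± 6.19 CPM in SK-UT-1B. Hyaluronan genes HAS2 and CEMIP were detected in SK-LMS-1 alone at this depth. HAS2, a hyaluronan synthase, was measured at 353, 346, 277, and 287 CPM in SK-LMS-1 and at 0 in both SK-UT-1B libraries, and CEMIP, which breaks hyaluronan down, was at 142 CPM against 0.

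The 10 called nuclear genes with the largest difference in CPM in each direction were also inspected, leaving out genes without a symbol. The mitochondrial MT-ND4 and MT-CO3, given above, differed by more than any of those on the SK-UT-1B side. On the SK-LMS-1 side, VIM, FN1, HMGA1, FLNA, and NT5E are given above. The translation factor EEF1A1 was 9393 ± 904 CPM in SK-LMS-1 and 3541 ± 219 CPM in SK-UT-1B, EEF2 was 7583 ± 396 CPM in SK-LMS-1 and 3118 ± 196 CPM in SK-UT-1B, and the ribosomal protein gene RPL10 was 3621 ± 259 CPM in SK-LMS-1 and 793 ± 59.6 CPM in SK-UT-1B. All 3 have processed copies elsewhere in the genome that may share reads. DCBLD2, a neuropilin-like receptor, was 2946 ± 276 CPM in SK-LMS-1 and 126 ± 19.3 CPM in SK-UT-1B, and ASPH, an aspartyl hydroxylase, was 2808 ± 68.4 CPM in SK-LMS-1 and 139.9 ± 1.13 CPM in SK-UT-1B. On the SK-UT-1B side, COL3A1, FREM2, VCAN, TNC, MEST, and TCF4 are given above. HSP90AA1, an HSP90 chaperone, was 1270 ± 115 CPM in SK-LMS-1 and 2732 ± 357 CPM in SK-UT-1B, PRKDC, the DNA-dependent protein kinase, was 595 ± 50.4 CPM in SK-LMS-1 and 1793 ± 2.59 CPM in SK-UT-1B, PTMA, prothymosin alpha, was 651 ± 51.5 CPM in SK-LMS-1 and 1848 ± 232 CPM in SK-UT-1B, and POLR2A, the large subunit of RNA polymerase II, was 668 ± 92.2 CPM in SK-LMS-1 and 1772 ± 562 CPM in SK-UT-1B. HSP90AA1 missed the fold threshold without SK-UT-1B 4-2 (log2FC -0.97).

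Line differences were also unevenly spread over the chromosomes. Among 14730 tested protein-coding genes, 21.1% were higher and 17.6% lower. Their median log2FC was 0.00. It was lowest on chromosomes 13 (-0.63), 16 (-0.62), and 22 (-0.56), and highest on X (0.56), 20 (0.55), 7 (0.52), and 6 (0.49). On chromosome 16, 9.45% of 635 genes were higher and 26.9% lower, against 31.3% and 11.7% of 804 genes on chromosome 6. These medians have no test, the gene copy number of the lines was not measured, and its part in them was not tested.

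**Figure D5:**
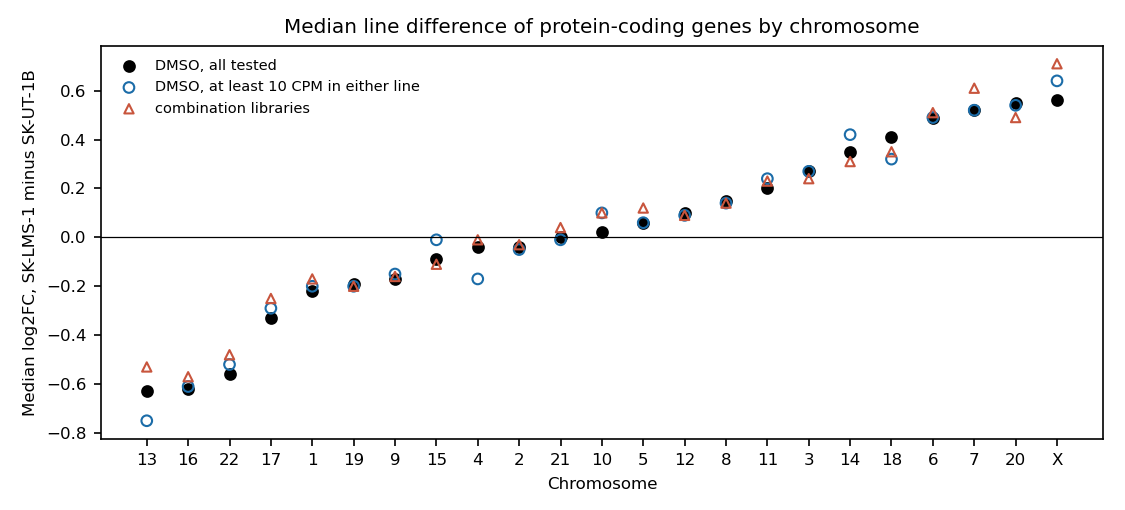
Median log2FC (SK-LMS-1 minus SK-UT-1B) of protein-coding genes for each chromosome, ordered from lowest to highest, for all tested genes, for genes of at least 10 CPM in either line, and for the libraries of the drug combination. Chromosomes 13, 16, and 22 lie lowest and 6, 7, 20, and X highest in all 3 sets.

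Neighboring genes absent together were found in SK-UT-1B in 6 places, and in SK-LMS-1 in 0, when at least 4 adjacent protein-coding genes had to be at or under 3 counts in every library of a line and at 1 CPM or more in the other. This rule is stricter for SK-LMS-1, with 4 libraries, than for SK-UT-1B, with 2. The numbers of places therefore cannot be compared between the lines. The run on chr18:63655197-63981774 holds SERPINB3, SERPINB7, SERPINB2, SERPINB10, and HMSD, with SERPINB7 at 436 CPM and SERPINB2 at 383 CPM in SK-LMS-1. On chr19:43064209-43363172 the run consisted of the pregnancy-specific glycoproteins PSG2, PSG5, PSG4, and PSG9 with CD177, at 2.94 to 15.9 CPM. Members of this family are near-identical copies, so their separate values are uncertain. Further runs are 4 protocadherin genes at chr5:141150057-141186226 and 2 groups of 4 histone genes at chr6:26250142-26273412 and chr6:27808173-27815489.

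The same line difference was read from the libraries treated with MK-0752, gemcitabine, and docetaxel, which share no library with the DMSO comparison, though the single fit gives both a common spread. Of the 3584 genes higher after DMSO, 2867 (80.0%) were higher there as well, and of the 2978 lower genes, 1800 (60.4%) were lower. Among all tested genes, 3285 (15.6%) were higher and 2087 (9.88%) lower after the combination. In the lists, 13 of 13 higher integrins, 22 of 23 higher YAP genes, and 36 of 40 higher cytokine genes were higher again, and 10 of 17 lower citrate cycle genes were lower again. Other lists repeated less often, with 8 of 17 lower neural genes, 2 of 6 lower mitochondrially encoded genes, and 2 of 4 higher Hedgehog genes. After the combination, 1 of the genes higher after DMSO was lower. The size of the line difference itself differed between DMSO and the combination in 49 of the 21114 tested genes (edgeR interaction test, adjusted p under 0.05). Of these, 46 were called after DMSO, 43 higher and 3 lower. The combination has only 2 libraries per line, so this small number does not show that the other differences stayed the same. Among the genes named here, a changed line difference was found for SOD3 alone.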

How the data were processed

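RNA of 12 samples was sequenced after ribosomal RNA depletion with a stranded kit, and the 6 DMSO libraries were compared here. Per the labels, the authors used Trim Galore 0.3.7, STAR 2.7.9a, and DESeq2 1.42.0 with build hg38, and they deposited raw counts of reads per gene, without normalization. The annotation, the strand setting, and any removal of duplicate reads are not given in the sources used here. Of 60649 genes, 60463 were placed with GENCODE v44. Count columns without a line in their name were taken as SK-LMS-1, since those of SK-UT-1B carry its name.

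Counts were tested with edgeR 4.0.16 (R 4.3.3) by quasi-likelihood with TMM scaling and filterByExpr, over all 12 libraries in 6 groups of 2. The SK-LMS-1 DMSO libraries formed 2 groups, 2-1 with 2-3 and 4-1 with 4-2, whose mean was set against SK-UT-1B. P-values were adjusted by Benjamini-Hochberg over 21114 genes. RPKM is CPM per kilobase of merged exons. The test was tried on simulated data. The members and the 47 lists were chosen with earlier results of these data known.

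Any list member could be named. Values were to be given for the 10 called genes with the largest difference in CPM per direction (mitochondrial genes and genes without a symbol left out), for up to 3 called genes per direction and list and 2 uncalled ones by RPKM, and for defining markers. That took 363 genes, of which 160 are given. Results for some genes are not reported here. The alternatives were DESeq2, its size factors in edgeR, other count filters, only the DMSO libraries, other groupings of SK-LMS-1, a replicate block, and each library left out.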

Additional observations from a re-analysis of the deposited data

Results flagged for a closer look

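Among the 4 SK-LMS-1 DMSO libraries, 10 of 168 named genes had a library that stood apart from the other 3 by Dixon's criterion. Chance alone marks about 1 gene in 20, or 8.4 of these genes. COL6A2 reached 1378 CPM in library 4-1 against 1123 to 1143 CPM in the others, and FGFR1 reached 303 CPM in the same library against 253 to 262 CPM. CSRP1 reached 381 CPM in library 2-1 against 305 to 316 CPM. PDGFRA reached 131 CPM in library 2-3 against 106 to 110 CPM, and NR2F1 reached 91 CPM there against 85 to 85.6 CPM. LSR reached 2.92 CPM in library 4-1 against 0 to 0.43 CPM. In the other 4 genes, a low value in a single library stood beside 0 counts in the other 3, which the criterion marks whatever that value is. These were PPARGC1A with 0.609 CPM in library 4-1, MEST with 0.602 CPM in library 2-1, EPCAM with 0.752 CPM in library 4-2, and PTPRC with 0.471 CPM in library 2-3.

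SOD3, an extracellular superoxide dismutase, was marked because the line difference itself differed between DMSO and the combination. Its log2FC between the lines was 10.41 after DMSO and 6.21 after the combination, a difference of 4.20 (edgeR interaction test, adjusted p = 0.00021). SK-UT-1B had at most 3 counts in each DMSO library, so the fitted 10.41 and 4.20 depend on the prior count, and the fold after DMSO is known only as at least 1176.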

How the results depend on the processing

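Under the alternatives, 3247 to 4010 genes were higher in SK-LMS-1 and 2363 to 3308 lower, all within 1.5 times the reported counts. Leaving out a library in turn gave 3256 to 3721 higher and 2833 to 3308 lower genes. Without a minimum fold, 6287 genes kept their direction after the combination, against 4667 with it. The replicate block was fitted to the 4-1 and 4-2 libraries of SK-LMS-1 DMSO, SK-UT-1B DMSO, and the SK-LMS-1 combination. It gave 3247 higher and 2397 lower genes, against 3464 and 2562 in those 6 libraries without it. The difference between 4-1 and 4-2 was not correlated between these groups (r of -0.00407, -0.0346, and -0.0652 over 9517 genes). With a single pair of libraries per group, this cannot decide whether samples with the same number were handled together. Of 2680 values of named genes under these settings, 2656 kept direction and side of the threshold. ALCAM (log2FC 9.02, edgeR adjusted p = 0.0502), PPARGC1A (log2FC -9.17, edgeR adjusted p = 0.0716), LAMC3 (log2FC -6.84, edgeR adjusted p = 0.246), and LSR (log2FC -4.90, edgeR adjusted p = 0.239) missed the threshold under the replicate block. MT-ND4 did so with only SK-LMS-1 2-1 and 2-3 (log2FC -0.97), and other losses are given with the gene. Values near 0 changed sign in uncalled genes. With only SK-LMS-1 2-1 and 2-3, the log2FC of CTNNB1 was 0.00 and that of RB1 0.09, and with each library left out in turn they ranged from -0.13 to 0.04 and from -0.22 to 0.12. That of COL1A2 was 0.04 with only SK-LMS-1 4-1 and 4-2, 0.03 under the block, and -0.11 to 0.05 with each library left out. That of PTPRC was -2.19 with only SK-LMS-1 4-1 and 4-2 and -2.22 to 2.96 with each library left out. Of 1410 list counts, 1349 stayed within 1.5 times. Under the block the lower members fell to 1 in the epithelial and integrin lists, 3 in the actin and Hedgehog lists, and 4 in the tight junction and desmosome list, which had 5 at a mean of at least 50 counts. No chromosome median changed sign among genes of at least 10 CPM. The cause of these changes was not tested.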
